A study of Danio rerio with 24 samples.

Results

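Solute carrier transporter genes (slc genes) were followed in the livers of male zebrafish of 2 generations. A gene was taken as a member when its zebrafish symbol began with slc and a digit and its mean count over the 24 libraries was at least 10, with slc4a1a, slc13a2, slc34a2a and slc40a1 left out. Of 440 such genes in the Ensembl count table, 436 remained without these 4, 210 of them lay under the count limit, 24 of which had no count at all, and 226 were members, of 32105 genes in all. Just inside the limit lay slc39a8 (mean count 10.5), slc2a6 (10.8) and slc1a1 (10.8), and just outside it slc39a3 (9.96), slc25a15a (9.88) and slc28a1 (9.42).

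The 4 groups had 6 libraries each. F1 high ARA fish were offspring of parents on the diet high in arachidonic acid (ARA), and F1 control fish were offspring of parents on the control diet. All F1 fish ate control feed themselves and were sampled at 140 to 142 days post fertilization (DPF). F0 high ARA and F0 control fish were these parental groups, wildtype AB fish given their diet from 27 DPF, mated at 97 DPF and sampled at 154 to 156 DPF. Generation and age therefore differed together and cannot be told apart. Each library was made from a pool of livers of 6 males of one tank, so that the p-values measure the spread between tanks.

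Solute carriers are membrane proteins that move sugars, amino acids, fatty acids, bile acids, nucleosides, vitamins and ions across the cell surface or the membranes of organelles, by facilitated diffusion or coupled to an ion gradient. The slc25 family sits mostly in the inner mitochondrial membrane and links the cytosol with the respiratory chain, the citric acid cycle and fatty acid oxidation. The liver is known for glucose uptake and release through slc2a2, for amino acid uptake that feeds urea and glucose synthesis, and for the handling of bile acids and organic ions.

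The total count on genes was between 5144880 and 15659321 per library, and every F1 high ARA library (8636978 to 11800367) exceeded every F1 control library (5144880 to 8493413). Hepatocyte markers were at a summed level of 112689 to 162828 CPM (counts scaled to a common library size with TMM normalization), so the liver label was met by its markers, and none of the 6 testis markers reached the count limit. Of these testis markers odf3b was not found by name and so was not measured. The enterocyte score of a library, the mean log2 CPM of 8 intestinal markers, was under 5 in all F1 high ARA libraries (2.53 to 4.53), but over 5 in 3 F1 control, 4 F0 high ARA and 3 F0 control libraries. In such bulk samples fewer cells of one type and less RNA per cell cannot be told apart.

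The members took 1.54% of the normalized counts, and mitochondrial carriers made up the greatest part of this. The 40 slc25 members, of 61 slc25 genes in the table, accounted for 43.8% of the CPM of all members, and for 61.2% once the counts were divided by gene length (RPKM, here CPM per kilobase of exon). The 37 amino acid and peptide transporters followed with 19.2% of the CPM and 10.2% of the RPKM. The 20 carriers of carboxylates, sulphate and fatty acids held 13.9% of the CPM, the 15 of bile acids and organic ions 6.93%, and the 13 of glucose and other sugars 4.18%.

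**Figure D1:**
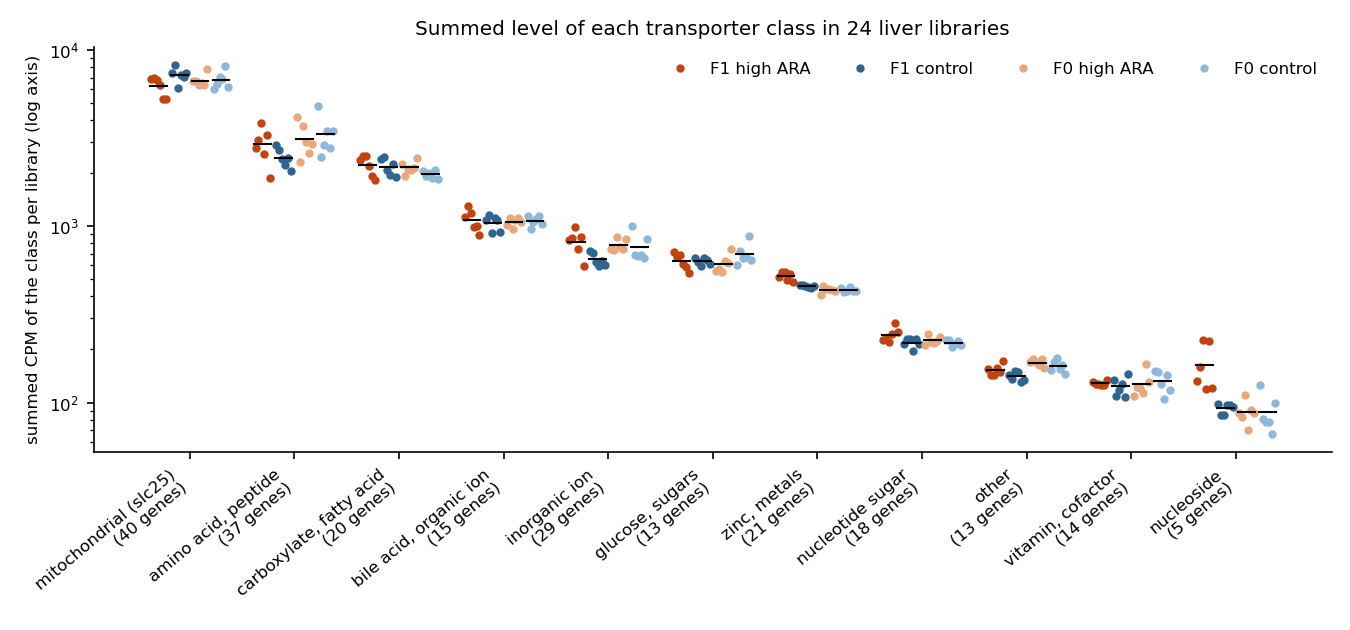
Summed CPM of each transporter class in each of the 24 libraries (points, log axis) with the mean of each group (bars), classes in order of level. The zinc and metal class lay between 482 and 552 CPM in F1 high ARA and between 446 and 466 CPM in F1 control livers, while the mitochondrial and the sugar class overlapped between these groups. The nucleoside class did not overlap either, with 120 to 225 CPM in F1 high ARA and 84.5 to 98.1 CPM in F1 control. Sums of genes outside the members were not compared.

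A single gene dominated the mitochondrial class. The gene slc25a5 encodes an ADP/ATP translocase, which exchanges mitochondrial ATP for cytosolic ADP, and with a mean of 3344 RPKM it was the 19th most abundant of all tested genes. Its CPM (lowest, median and highest of 6 libraries) were 3285, 4325 and 4770 in F1 high ARA, 4289, 5261 and 5962 in F1 control, 4297, 4598 and 5642 in F0 high ARA and 4223, 4746 and 5816 in F0 control. All 4 groups overlapped, and no comparison called it (log2 fold change of -0.35 ± 0.11 SE between F1 high ARA and F1 control, edgeR adjusted p = 0.112). The next mitochondrial genes per length were slc25a3b, a phosphate carrier (219 RPKM), slc25a48 (97.5 RPKM), slc25a20, the carnitine-acylcarnitine carrier of fatty acid oxidation (73.6 RPKM), and slc25a33, a pyrimidine nucleotide carrier (63.4 RPKM).

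Among the amino acid transporters slc38a4, a sodium-coupled neutral amino acid transporter, was the most abundant with 281 RPKM, ahead of the cationic amino acid transporter slc7a2 (107 RPKM) and the glutamate transporter slc1a3a (65.0 RPKM). The CPM of slc38a4 were 815, 1331 and 2003 (lowest, median and highest) in F1 high ARA, 815, 1065 and 1392 in F1 control, 996, 1476 and 2339 in F0 high ARA and 1119, 1672 and 3312 in F0 control. These ranges overlapped in every pair of groups. Among the sugar transporters slc2a2, the facilitative glucose transporter of hepatocytes, had 112 RPKM and slc37a4a, which brings glucose 6-phosphate into the endoplasmic reticulum for glucose release, had 58.9 RPKM. The fatty acid transporter and very long chain acyl-CoA synthetase slc27a2a had 265 RPKM, the citrate transporter slc13a5a 170 RPKM, the organic cation transporter slc22a2 212 RPKM and slc51a, a subunit of the basolateral bile acid exporter, 154 RPKM.

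Further members ranked among the 5 most abundant of their class per length. In the amino acid class slc6a22.2 and slc6a22.1 had 53.7 and 35.1 RPKM, among organic ion carriers slc22a15 and slc10a3 had 19.3 and 11.6 RPKM, and the sugar-phosphate transporter slc37a2 had 25.6 RPKM. Among ion carriers the phosphate transporters slc20a1b and slc20a2 had 24.8 and 13.7 RPKM and the anion transporters slc26a3.2 and slc26a5 had 21.96 and 19.5 RPKM, of which slc20a1b varied from 24.5 to 338 CPM between libraries. The monocarboxylate transporter family member slc16a6 had 36.3 RPKM. Nucleoside carriers slc29a4a and slc43a3a were near 1 RPKM or under it (1.17 and 0.544 RPKM).

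The slc35 family, taken by name as the nucleotide sugar class, includes carriers that supply the Golgi and endoplasmic reticulum. Its leading genes slc35d1b, slc35f6, slc35b4, slc35a4 and slc35b1 had 20.4, 15.8, 15.7, 5.58 and 4.75 RPKM. Not every member of this family need carry nucleotide sugars, and their substrates were not tested. Vitamin and cofactor carriers were lower, with slc46a3 at 12.2, slc5a6b at 8.21, slc49a4 at 7.35, the heme transporter slc48a1b at 5.25 and the folate transporter slc19a1 at 5.03 RPKM. Of the remaining carriers slc67a1 had 46.2, the choline transporter family member slc44a5b 4.07 and slc18b1 2.60 RPKM. The zinc transporters slc30a7 and slc39a9 had 25.2 and 10.1 RPKM, whereas slc39a14, a zinc and iron importer of mammalian hepatocytes, had 0.611 RPKM and the ornithine carrier slc25a15b of the urea cycle 0.390 RPKM. Of these 29 genes slc37a2 and slc20a2 were called in any comparison, both higher in F1 high ARA than in F0 high ARA (log2 fold changes of 0.42 ± 0.11 and 0.60 ± 0.15, edgeR adjusted p of 0.0215 and 0.0175).

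The copper importer slc31a1 and the iron and divalent metal transporter slc11a2 had 30.3 and 38.1 RPKM, and their SD of log2 CPM within groups was 0.13 and 0.16. Over all members the median of this SD was 0.38, against 0.31 over the 11974 genes that passed the count limit. It was over 1 in 16 members (7.08%), against 323 of all genes (2.70%).

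The 8 members with the widest spread within groups were slc15a1b, slc6a19a.1, slc13a1, slc22a7b.3, slc4a4a, slc4a5b, slc5a1 and slc14a2. From absorptive epithelia slc15a1 is known as a peptide transporter, slc13a1 as a sulphate transporter, slc6a19 as a neutral amino acid transporter and slc5a1 as the sodium-glucose cotransporter of the intestinal brush border. In the 10 libraries with an enterocyte score over 5, slc15a1b ranged from 4.50 to 77.7 CPM, against 0 to 6.61 CPM in the other 14. For slc5a1 the ranges were 11.6 to 113 CPM and 2.58 to 8.02 CPM, and for slc13a1 2.57 to 26.0 CPM and 0 to 1.58 CPM, so that the libraries with more intestinal marker RNA were above all others for both genes. The urea transporter slc14a2 did not follow this order, with 0.613 to 9.03 CPM in the libraries over 5 and 0 to 16.3 CPM in those under 5. The part of intestinal RNA in the levels of these genes was not tested beyond the fits with the score described below.

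**Figure D2:**
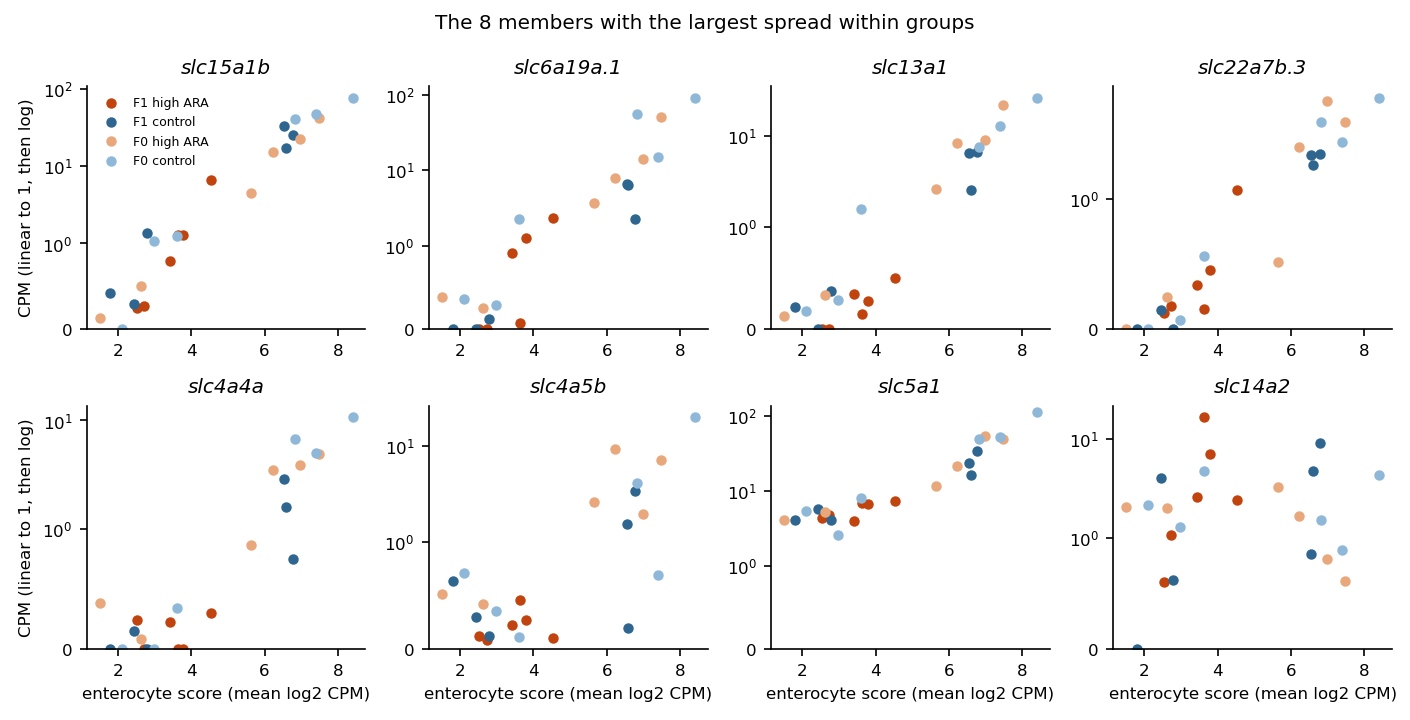
CPM of the 8 members with the largest spread within groups (y axis, linear up to 1 and logarithmic above) against the enterocyte score of each library (x axis, mean log2 CPM of 8 markers), 24 libraries coloured by group. All F1 high ARA libraries have a score under 5, and slc5a1 and slc13a1 are higher in each library over 5 than in any under 5, while slc14a2 is not.

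F1 high ARA and F1 control livers came from fish on the same feed and differed in the diet of their parents. In this comparison 8 of the 226 members (3.54%) were called at an adjusted p under 0.05 (edgeR quasi-likelihood test, Benjamini-Hochberg over all genes tested), 5 higher and 3 lower in F1 high ARA, where 1.81% of all tested genes were called (0.885% higher and 0.927% lower). An unadjusted p under 0.05 was found for 52 members, or 23.01%, against 19.8% of all tested genes. The median log2 fold change was 0.08 over the members and 0.00 over all tested genes (0.00409), and 135 members had a positive and 91 a negative value. With the counts made on the RefSeq annotation as well, 6 of the 8 were called in both annotations, where 1.46% of the genes with a partner were. The exceptions were slc29a1b and slc41a1. With library totals in place of TMM, which moved the median of all genes to 0.12, 10 members were called higher and 1 lower. In that fit 1.75% of all tested genes were called. A count of 3 members had all F1 high ARA libraries above all F1 control libraries and 3 had all of them below, beside 2.29% of all tested genes without overlap.

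The highest fold change was that of slc47a2.1 (ENSDARG00000060051, GRCz10 chromosome 21, 39968598 to 39991977, minus strand), a multidrug and toxin extrusion gene whose mammalian relatives export organic cations into bile and urine. Its CPM were 15.1, 24.7 and 55.1 (lowest, median and highest) in F1 high ARA and 0.214, 4.75 and 8.90 in F1 control, with no overlap. The log2 fold change was 2.72 ± 0.57 (SE, n = 6 per group, edgeR adjusted p = 0.0398). The call was lost in 10 of the 12 fits that left out 1 library, with an adjusted p of up to 0.0894. Its relative slc47a1 had 19.8, 27.2 and 31.7 CPM in F1 high ARA, against 30.8, 33.1 and 41.1 CPM in F1 control (log2 fold change -0.37 ± 0.13, edgeR adjusted p = 0.130).

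The organic cation transporter slc22a3 (ENSDARG00000058775, chromosome 17, 6173587 to 6191620, minus strand) was lower, with 2.81, 3.30 and 4.10 CPM in F1 high ARA, against 4.51, 7.78 and 9.76 CPM in F1 control. No F1 high ARA library reached the lowest F1 control library. The log2 fold change was -1.20 ± 0.18 (edgeR adjusted p = 0.0052), and the gene was called in each of the 12 fits with 1 library left out. It was the one member still called between the 6 F1 high ARA and the 3 F1 control libraries with an enterocyte score under 5 (log2 fold change -1.26, edgeR adjusted p = 0.0130). In that fit 0.501% of all tested genes were called, against 1.81% with all libraries. The log2 fold changes there were 2.07 for slc43a3b, 2.99 for slc47a2.1, 0.78 for slc10a4 and 1.18 for slc41a1. They were 0.61 for slc12a7b, -0.69 for slc25a17 and -0.45 for slc29a1b. The edgeR adjusted p of these genes lay between 0.0558 and 0.194. The gene slc10a4 (ENSDARG00000009131, chromosome 20, 23532385 to 23541855, minus strand), a member of the bile acid transporter family that is not known as a bile acid carrier, had 17.96, 19.7 and 22.9 CPM in F1 high ARA, against 8.60, 12.0 and 16.9 CPM in F1 control, with no overlap and a log2 fold change of 0.68 ± 0.14 (edgeR adjusted p = 0.0254).

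Purine and nucleoside carriers moved in both directions. The gene slc43a3b (ENSDARG00000057949, chromosome 14, 16819951 to 16856628, plus strand), whose human counterpart carries purine nucleobases, had 59.08, 90.9 and 175 CPM in F1 high ARA, against 20.9, 32.1 and 38.7 CPM in F1 control. The groups did not overlap, and the log2 fold change of 1.81 ± 0.28 (edgeR adjusted p = 0.0108) was found in all 12 fits with 1 library left out, from 1.63 to 1.94. The equilibrative nucleoside transporter slc29a1b (ENSDARG00000054447, chromosome 11, 43127548 to 43166351, plus strand) had 33.4, 36.7 and 42.8 CPM in F1 high ARA, against 44.8, 48.4 and 55.8 CPM in F1 control, again with no overlap. Its log2 fold change was -0.39 ± 0.09 (edgeR adjusted p = 0.0473), and 10 of the 12 fits with 1 library left out lost the call, with an adjusted p of up to 0.103. With the enterocyte score in the fit it had a log2 fold change of -0.41 at an edgeR adjusted p of 0.0575, and with RefSeq counts it was not called. Summed over the 5 nucleoside and nucleobase carriers, the level was 163 ± 48.9 CPM in F1 high ARA, against 92.6 ± 6.20 CPM in F1 control (mean ± SD, n = 6 per group), most of it slc43a3b and slc29a1b.

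Ion and metal carriers supplied another 2 calls. The potassium-chloride cotransporter slc12a7b (ENSDARG00000062058, chromosome 24, 39890801 to 39997944, minus strand) had 144, 221 and 229 CPM in F1 high ARA, against 106, 115 and 177 CPM in F1 control. The ranges overlapped through 1 library on each side, and the log2 fold change was 0.74 ± 0.14 (edgeR adjusted p = 0.0217). The magnesium transporter slc41a1 (ENSDARG00000070214, chromosome 11, 37681634 to 37730214, minus strand) had 26.2, 42.3 and 64.6 CPM in F1 high ARA, against 14.4, 22.5 and 32.7 CPM in F1 control, with overlap and a log2 fold change of 0.95 ± 0.22 (edgeR adjusted p = 0.0473). This call was lost in 10 of the 12 fits with 1 library left out, with an adjusted p of up to 0.107, and also with RefSeq counts. Of the 21 zinc and metal carriers 16 had a positive fold change (median 0.19 on the log2 scale), but slc41a1 alone passed the test. Their summed level was 523 ± 28.7 CPM in F1 high ARA, against 458 ± 7.29 CPM in F1 control (mean ± SD, n = 6 per group), and the ranges did not overlap. This sum includes slc41a1. The share of positive values over all genes was not counted, and sums of other genes were not compared. With library totals in place of TMM the median of all genes was 0.12, so the signs of the fold changes and the sums depend on the normalization. Such a change of scale moves all genes by about the same amount, the metal carriers included.

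Of the 40 slc25 members 26 had a positive log2 fold change (median 0.07), 6 reached an unadjusted p under 0.05 and 1 was called. This was slc25a17 (ENSDARG00000061684, chromosome 3, 24551287 to 24562684, plus strand), which belongs to the mitochondrial carrier family by sequence but is known as a carrier of the cofactors CoA, FAD and NAD+ in peroxisomes. It had 14.7, 19.2 and 25.5 CPM in F1 high ARA, against 26.7, 31.4 and 36.5 CPM in F1 control, without overlap. The log2 fold change was -0.65 ± 0.14 (edgeR adjusted p = 0.0273), and 7 of the 12 fits with 1 library left out lost the call. The citrate carrier genes slc25a1a and slc25a1b had log2 fold changes of 1.21 ± 0.34 and 0.96 ± 0.30, with adjusted p of 0.0803 and 0.109. None of the 37 amino acid, 13 sugar and 20 carboxylate and fatty acid carriers was called, although 10, 3 and 5 of them had an unadjusted p under 0.05 and DESeq2 called 20 members over all classes, beside 5.15% of all tested genes. The dicarboxylate carrier slc13a3 had 3.31, 11.04 and 18.04 CPM in F1 high ARA, against 0.395, 1.44 and 6.61 CPM in F1 control, but an edgeR adjusted p of 0.0889 (log2 fold change 1.96 ± 0.54).

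**Figure D3:**
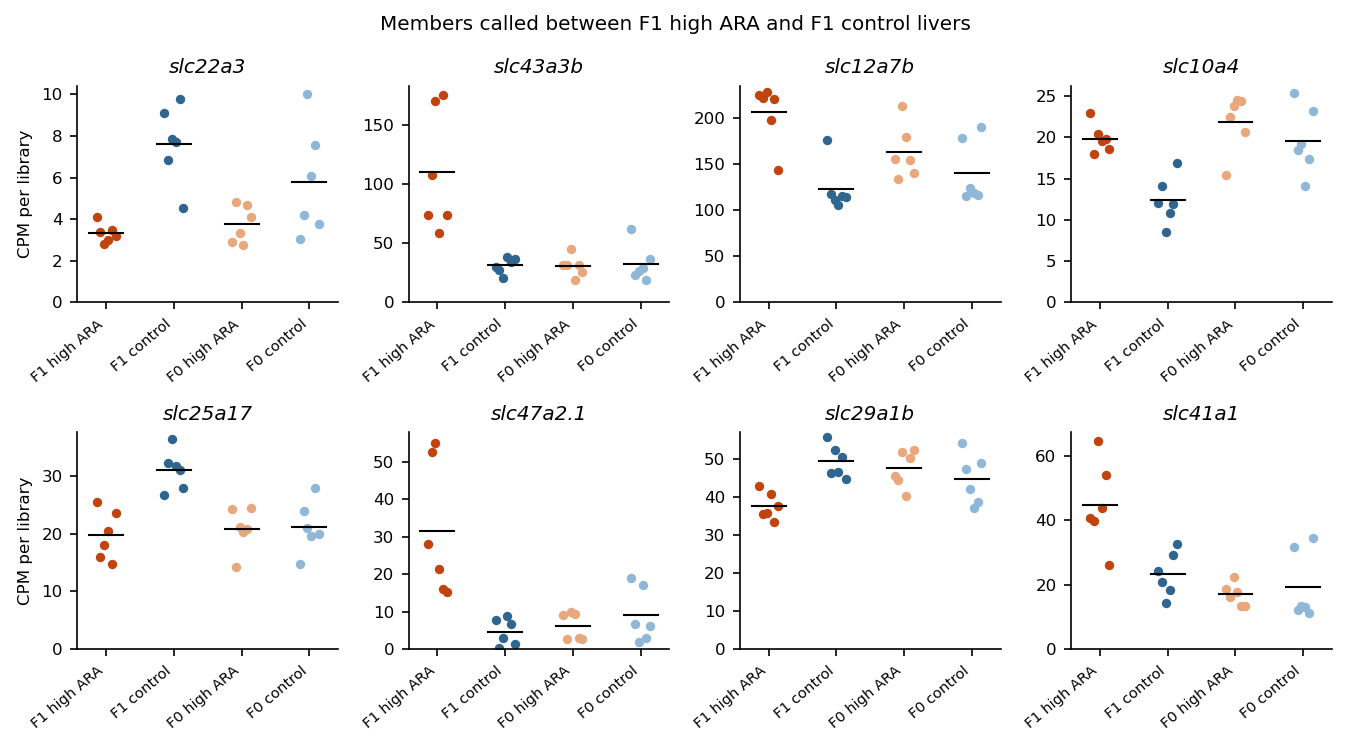
CPM of the 8 members called between F1 high ARA and F1 control livers, 1 point per library and a bar at the mean of each group, linear axes from 0. The F0 groups are shown for their levels: slc43a3b, slc47a2.1 and slc41a1 were high in F1 high ARA, while slc22a3 and slc25a17 were lower there than in F1 control.

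Between F1 high ARA and F1 control the 13 pancreas acinar markers had a median log2 fold change of -0.65, with none of them called. Their score was 6.28 to 7.56 in F1 high ARA and 5.39 to 8.52 in F1 control. With this score in the fit slc22a3, slc43a3b, slc12a7b, slc10a4 and slc47a2.1 were still called, while slc25a17, slc29a1b and slc41a1 were not, with log2 fold changes of -0.62, -0.35 and 0.82 and adjusted p of 0.0597, 0.0986 and 0.07003.

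F0 high ARA and F0 control livers came from fish that ate different diets themselves. No member was called here (edgeR, 0 of 226, beside 0% of all tested genes), 19 members had an unadjusted p under 0.05 (8.41%, against 7.48% of all tested genes), and DESeq2 called 1, beside 0.234% of all genes. This gene was slc22a23, an organic ion transporter family member without a settled substrate, with 22.1, 34.3 and 36.4 CPM in F0 high ARA, against 11.8, 20.3 and 24.6 CPM in F0 control. Its log2 fold change was 0.69 ± 0.16, the edgeR adjusted p was 0.346, the smallest among the members, and the DESeq2 adjusted p was 0.0440. The fructose transporter family member slc2a5 had 10.8, 18.5 and 24.5 CPM in F0 high ARA, against 17.9, 29.1 and 32.5 CPM in F0 control (log2 fold change -0.64 ± 0.18, edgeR adjusted p = 0.419). The lactate and pyruvate transporter slc16a1b had 30.3, 47.1 and 73.1 CPM in F0 high ARA, against 16.3, 28.3 and 38.8 CPM in F0 control (log2 fold change 0.82 ± 0.25, edgeR adjusted p = 0.469). Both pairs of ranges overlapped, and the class medians lay between -0.09 and 0.09 on the log2 scale.

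The difference between the diet effects of F1 and F0 was tested as the interaction over all 24 libraries. No member passed (edgeR, 0 of 226, beside 0.117% of all tested genes, 0.0668% positive and 0.0501% negative), 31 had an unadjusted p under 0.05 (13.7%, against 12.9% of all genes), and DESeq2 called 3 (beside 0.985% of all genes), namely slc43a3b, slc16a4 and slc47a2.1. The smallest edgeR adjusted p was 0.0634, for slc43a3b, with an interaction of 1.898 ± 0.42 on the log2 scale. For slc47a2.1 the interaction was 3.31 ± 0.86 (edgeR adjusted p = 0.118). Of the 21 zinc and metal carriers 19 had a positive interaction term (median 0.20, against 0.01 over all genes), none of which passed the test. The share of positive terms over all genes was not counted. With library totals in place of TMM the median over all genes was 0.12, so the sign of a term depends on the normalization. That change of scale moves all genes by about the same amount, the metal carriers included.

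**Figure D4:**
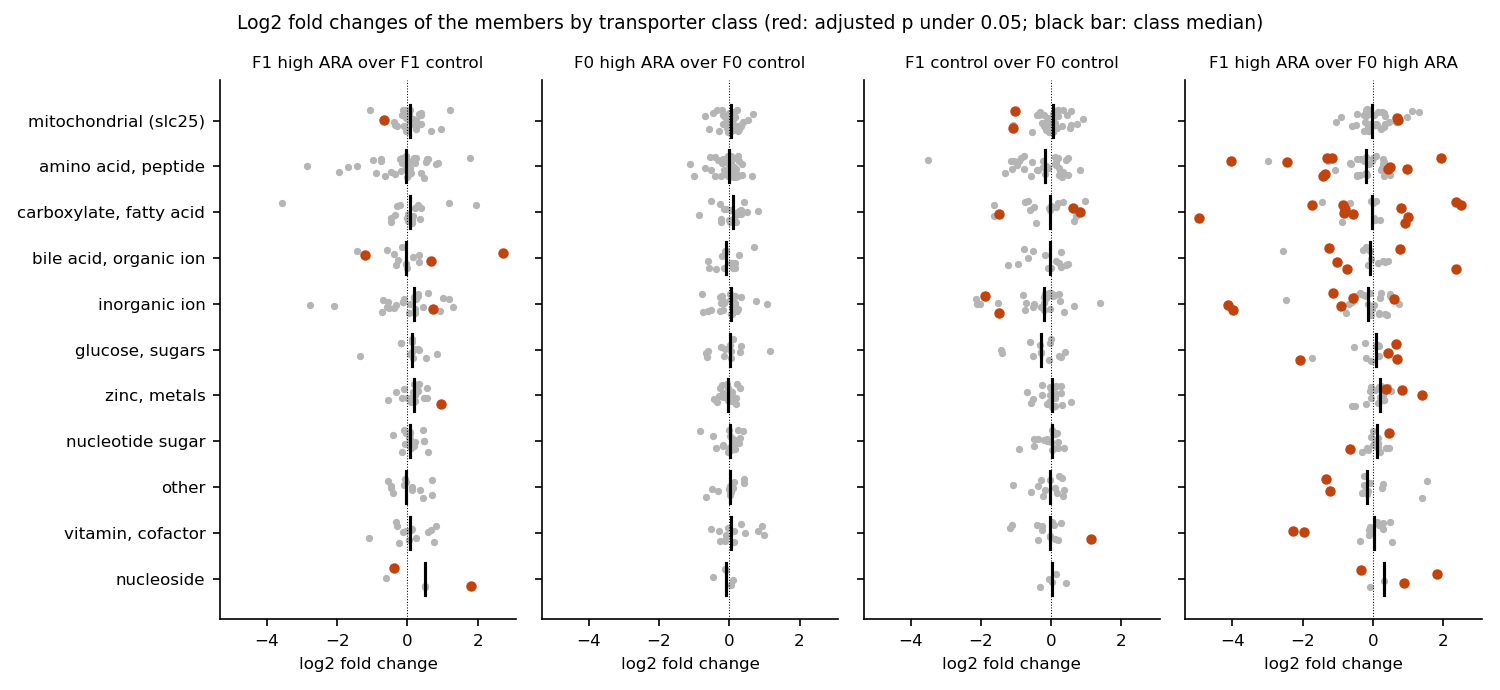
Log2 fold changes (x axis) of the members in 11 transporter classes (rows) for F1 high ARA over F1 control, F0 high ARA over F0 control, F1 control over F0 control and F1 high ARA over F0 high ARA. Red points passed an adjusted p of 0.05 and black bars are class medians; 8, 0, 8 and 51 members passed, the last count including slc7a6os, which is not plotted as it is no carrier.

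Between F1 control and F0 control livers, which differed in generation and age, 8 members were called (3.54%, against 2.42% of all tested genes), 3 higher and 5 lower in F1 control, where 0.86% of all genes were called higher and 1.56% lower. At an unadjusted p under 0.05 there were 56 members, or 24.8%, against 18.1% of all genes, and 4 of the 8 were called in both annotations, beside 1.79% of the genes with a partner. The exceptions were slc16a7 (ENSDARG00000098258), slc25a1b, slc27a2b and slc49a3, the last with a mean count of 2.83 in the RefSeq counts. The median log2 fold change was -0.05 over the members and 0.00 over all tested genes (-0.000154). The long chain fatty acid transporter slc27a1b (ENSDARG00000104949) was higher, with 159, 209 and 271 CPM in F1 control, against 94.1, 120 and 130 CPM in F0 control, no overlap and a log2 fold change of 0.81 ± 0.13 (edgeR adjusted p = 0.00792). Its relative slc27a2b (ENSDARG00000100731) had 292, 380 and 473 CPM in F1 control, against 169, 254 and 319 CPM in F0 control, with overlap (log2 fold change 0.62 ± 0.15, edgeR adjusted p = 0.0483). The other higher gene, slc49a3, had 1.32, 1.60 and 2.12 CPM in F1 control, against 0.419, 0.753 and 1.00 CPM in F0 control, a low level at which each library holds few counts.

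Lower in F1 control were 2 mitochondrial genes. The liver-enriched carrier slc25a47a (ENSDARG00000059923) had 2.35, 3.78 and 5.45 CPM in F1 control, against 6.32, 8.41 and 11.4 CPM in F0 control, without overlap (log2 fold change -1.09 ± 0.21, edgeR adjusted p = 0.0171). The citrate carrier slc25a1b, which exports citrate for fatty acid synthesis, had 6.68, 7.87 and 12.97 CPM in F1 control, against 9.73, 18.98 and 25.5 CPM in F0 control, with overlap (log2 fold change -1.01 ± 0.24, edgeR adjusted p = 0.0445). The anion exchanger slc26a6.2 had 1.48, 3.31 and 5.14 CPM in F1 control, against 5.20, 10.4 and 11.2 CPM in F0 control (log2 fold change -1.47 ± 0.26, edgeR adjusted p = 0.0138). The organellar sodium-proton exchanger slc9a7 and one of the 2 genes named slc16a7, a monocarboxylate transporter (ENSDARG00000098258, on the unplaced scaffold KN149739.1), were lower at levels under 4 CPM in every library, with log2 fold changes of -1.88 ± 0.45 and -1.48 ± 0.32 and edgeR adjusted p of 0.0406 and 0.0295.

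In the 12 fits with 1 library left out slc27a1b, slc26a6.2 and slc25a47a were called every time, whereas slc16a7 lost the call in 4, slc49a3 in 8, slc25a1b and slc9a7 in 9 and slc27a2b in 10.

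The score of the pancreas acinar markers was 5.39 to 8.52 in F1 control, against 4.75 to 7.19 in F0 control. These ranges overlapped, and none of the markers was called in this comparison. With that score in the fit 2 of the 8 were still called, slc27a1b (log2 fold change 0.63) and slc26a6.2 (-1.55), both at an edgeR adjusted p of 0.0426. The other 6 had an adjusted p of 0.0740 to 0.161. Over all tested genes the share of calls was 0.401% in that fit, against 2.42% without the score. The log2 fold changes of these 6 in that fit were -1.06 for slc25a47a, -1.57 for slc16a7, -1.97 for slc9a7, 1.06 for slc49a3, -0.96 for slc25a1b and 0.57 for slc27a2b, close to those without the score. Without the libraries with an enterocyte score over 5, 3 were left per group and no member was called, beside 0.0334% of all tested genes. The log2 fold changes were then 1.08 for slc27a1b and -1.49 for slc26a6.2. The parts of pancreatic and intestinal RNA in the other calls were not tested further.

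F1 high ARA and F0 high ARA livers came from fish that differed in generation, in age and in the feed they ate themselves. These livers differed in 51 members (22.6%, against 17.3% of all tested genes), 24 of them up and 27 down in F1 high ARA, where 8.55% of all genes were called higher and 8.74% lower. At an unadjusted p under 0.05 there were 79 members, or 34.96%, against 33.2% of all genes. Of the 51 genes 43 were called in both annotations, beside 16.4% of the genes with a partner, and 18 members had no overlap between the groups (10 higher, 8 lower), against 7.14% of all tested genes. The members' median log2 fold change was -0.04, against 0.01 over all genes. By class, 11 of 20 carboxylate and fatty acid carriers, 10 of 37 amino acid, 6 of 29 ion, 5 of 15 bile acid and organic ion, 4 of 13 sugar, 3 of 21 metal, 3 of 5 nucleoside and 2 of 40 mitochondrial carriers were called. In the remaining classes 2 of 18 nucleotide sugar, 2 of 14 vitamin and cofactor and 2 of 13 other carriers were called, and slc7a6os. This comparison shares the F1 high ARA libraries with the F1 diet comparison and the F0 high ARA libraries with the F0 diet comparison, so their values are not independent.

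Fatty acid and monocarboxylate carriers moved in both directions. The gene slc27a2b had 395, 498 and 627 CPM in F1 high ARA, against 228, 265 and 342 CPM in F0 high ARA, with no overlap (log2 fold change 0.81 ± 0.13, edgeR adjusted p = 0.00175). Its paralog slc27a2a went the other way, with 346, 628 and 840 CPM in F1 high ARA, against 856, 919 and 1224 CPM in F0 high ARA, also without overlap (log2 fold change -0.58 ± 0.17, edgeR adjusted p = 0.0335), although 6 of the 12 fits with 1 library left out lost this call, with an adjusted p of up to 0.0671. Of the further members of that family slc27a6 (log2 fold change 1.00 ± 0.16) and slc27a1b (0.92 ± 0.19) were higher, with edgeR adjusted p of 0.00134 and 0.00647. The monocarboxylate transporter family member slc16a4 had 18.5, 35.9 and 77.5 CPM in F1 high ARA, against 4.39, 7.42 and 12.6 CPM in F0 high ARA (log2 fold change 2.37 ± 0.37, edgeR adjusted p = 0.00188). Lower were both genes named slc16a7, with a log2 fold change of -0.86 ± 0.19 for ENSDARG00000021573, the one on chromosome 23 (edgeR adjusted p = 0.0101), and of -1.73 ± 0.43 for ENSDARG00000098258 (edgeR adjusted p = 0.0162). The dicarboxylate carrier slc13a3 had 3.31, 11.04 and 18.04 CPM in F1 high ARA, against 0, 1.51 and 3.76 CPM in F0 high ARA (log2 fold change 2.51 ± 0.61, edgeR adjusted p = 0.0179).

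The smallest p of all members was that of slc48a1a (ENSDARG00000026907, chromosome 23, 33430632 to 33434894, minus strand), a heme transporter of the endosomal system. It had 0.532, 0.767 and 1.45 CPM in F1 high ARA, against 3.34, 3.83 and 5.69 CPM in F0 high ARA, with no overlap and a log2 fold change of -2.29 ± 0.25 (edgeR adjusted p = 0.000164). The sodium-phosphate cotransporter slc34a2b had 11.1, 12.1 and 15.5 CPM in F1 high ARA, against 21.5, 24.6 and 39.6 CPM in F0 high ARA (log2 fold change -1.13 ± 0.16, edgeR adjusted p = 0.00079). The taurine transporter slc6a6 had 1.98, 3.17 and 4.86 CPM in F1 high ARA, against 6.43, 7.40 and 10.4 CPM in F0 high ARA (log2 fold change -1.35 ± 0.21, edgeR adjusted p = 0.00129). None of these pairs of ranges overlapped.

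Several genes called between the F1 groups were also called here, against the other set of libraries. The values were 1.84 ± 0.30 on the log2 scale for slc43a3b (edgeR adjusted p = 0.00232), 2.37 ± 0.48 for slc47a2.1 (0.00835), 1.40 ± 0.20 for slc41a1 (0.000868) and -0.34 ± 0.09 for slc29a1b (0.0259). In contrast slc22a3 had -0.19 ± 0.18 (0.465), slc25a17 -0.09 ± 0.16 (0.718) and slc10a4 -0.15 ± 0.12 (0.405), and slc12a7b was not called here either. For comparison slc25a17 had 14.2, 21.01 and 24.4 CPM in F0 high ARA, against 14.7, 20.4 and 27.9 CPM in F0 control, within reach of the 14.7 to 25.5 CPM of F1 high ARA. Between F1 control and F0 control the edgeR adjusted p was 0.0509 for slc25a17 and 0.0547 for slc10a4.

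Among bile acid and organic ion carriers 2 were called higher and 3 lower, and among sugar carriers 3 higher and 1 lower. The bile acid exporter subunit slc51a had 241, 356 and 428 CPM in F1 high ARA, against 171, 202 and 254 CPM in F0 high ARA, with overlap (log2 fold change 0.76 ± 0.14, edgeR adjusted p = 0.0033). The glucose 6-phosphate transporter slc37a4a had 132, 193 and 230 CPM in F1 high ARA, against 93.3, 112 and 152 CPM in F0 high ARA (log2 fold change 0.69 ± 0.14, edgeR adjusted p = 0.00628), whereas slc2a2 had 247, 309 and 396 CPM in F1 high ARA, against 295, 347 and 471 CPM in F0 high ARA and was not called (log2 fold change -0.22 ± 0.13, edgeR adjusted p = 0.246). The zinc exporter slc30a1a and the lysosomal nucleoside transporter slc29a3 were higher by 0.83 ± 0.16 and 0.88 ± 0.17 on the log2 scale (edgeR adjusted p of 0.00463 and 0.00447). With RefSeq counts slc29a3 was not called (edgeR adjusted p = 0.0513), at a mean count of 17.3 against 63.4 in the Ensembl counts. The organic ion transporter family member slc22a23 had 14.5, 19.02 and 24.4 CPM in F1 high ARA, against 22.1, 34.3 and 36.4 CPM in F0 high ARA (log2 fold change -0.73 ± 0.15, edgeR adjusted p = 0.00704).

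Among amino acid transporters 10 were called, 4 up and 6 down in F1 high ARA. The glutamine transporter slc38a3b (chromosome 6, 53149117 to 53227563, minus strand) had 169, 224 and 317 CPM in F1 high ARA, against 97.3, 110 and 161 CPM in F0 high ARA, with no overlap and a log2 fold change of 0.96 ± 0.16 (edgeR adjusted p = 0.00223). With RefSeq counts the value was -0.30 and the adjusted p 0.374. The RefSeq model of this gene spans 2294 bases of exon and held a mean count of 38.8, against 7219 bases and 1237 in the Ensembl model, so that the call rests on reads that the RefSeq counts do not assign to this gene. Where those reads lay was not tested. Lower were slc43a2b and slc7a8a, both of families that carry large neutral amino acids, while the paralog slc43a2a was called higher (log2 fold change 1.92). The gene slc43a2b had 4.98, 9.38 and 12.3 CPM in F1 high ARA, against 16.95, 18.7 and 45.5 CPM in F0 high ARA (log2 fold change -1.36 ± 0.29, edgeR adjusted p = 0.00928). For slc7a8a the log2 fold change was -1.42 ± 0.32 (edgeR adjusted p = 0.00984). With the enterocyte score in the fit the edgeR adjusted p of slc7a8a was 0.0498. Without the libraries with a score over 5 its log2 fold change was -0.37 (edgeR adjusted p = 0.484). The bicarbonate cotransporter slc4a4b had 3.27, 3.86 and 4.91 CPM in F1 high ARA, against 5.19, 6.75 and 12.02 CPM in F0 high ARA, without overlap (log2 fold change -0.92 ± 0.20, edgeR adjusted p = 0.00845). The gene slc6a16a, whose substrate is not known, had 0.701, 0.854 and 1.17 CPM in F1 high ARA, against 1.28, 2.04 and 3.46 CPM in F0 high ARA (log2 fold change -1.22 ± 0.28, edgeR adjusted p = 0.0110).

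Several of the called lower genes followed the enterocyte score. The sulphate transporter slc13a1 had 0, 0.212 and 0.501 CPM in F1 high ARA, against 0.128, 5.43 and 21.6 CPM in F0 high ARA, with overlap (log2 fold change -4.95 ± 1.16, edgeR adjusted p = 0.0157). The bicarbonate cotransporters slc4a4a and slc4a5b had log2 fold changes of -4.12 ± 0.99 and -3.98 ± 0.84 (edgeR adjusted p of 0.0152 and 0.00864), slc6a19a.1 of -4.05 ± 1.27 (0.0486), slc5a1 of -2.07 ± 0.62 (0.0404) and the peptide transporter slc15a1a of -2.46 ± 0.74 (0.0381). The calls of slc6a19a.1 and slc5a1 were lost in 10 and 9 of the 12 fits with 1 library left out. The 8 enterocyte markers had a median log2 fold change of -3.63 in this comparison, with 3 of them called lower, and 4 of 6 F0 high ARA libraries had a score over 5 beside none in F1 high ARA. With the score as a covariate 30 of the 51 calls remained, where 9.99% of all genes were called. The log2 fold change was then -1.65 for slc13a1, -2.09 for slc4a4a, -2.35 for slc4a5b, -0.50 for slc5a1, -0.57 for slc15a1a and 0.18 for slc6a19a.1, a change of direction, and none of these 6 was called (edgeR adjusted p of 0.0534 to 0.899). In the same fit slc48a1a had -2.17, slc43a3b 1.88, slc41a1 1.60 and slc27a2b 0.80, all still called.

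**Figure D5:**
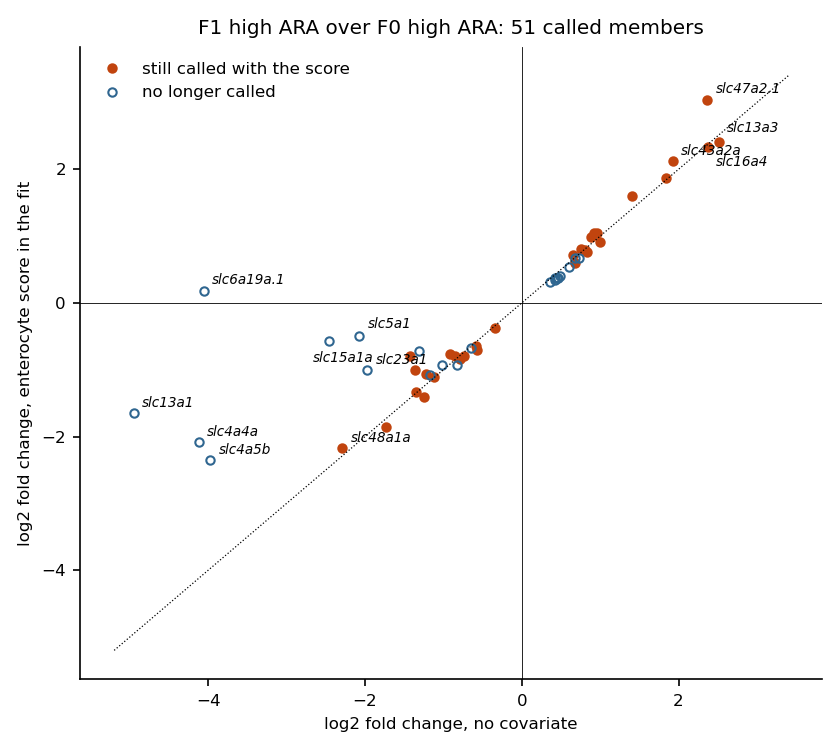
Log2 fold changes of F1 high ARA over F0 high ARA livers for the 51 called members, without a covariate (x axis) and with the enterocyte score in the fit (y axis). Points on the dotted line did not move; filled points were still called (30) and open points were not (21), among them slc13a1, slc4a4a, slc4a5b, slc6a19a.1 and slc5a1, which moved towards 0.

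Without the libraries with a score over 5, the 6 F1 high ARA libraries met only 2 F0 high ARA libraries, and 6 of the 51 members were still called, where 1.87% of all genes were. These were slc48a1a (-2.06), slc34a2b (-1.14), slc41a1 (1.75), slc47a2.1 (3.52), slc29a3 (1.07) and slc38a3b (1.06), given as log2 fold changes. Leukocyte markers were also lower in F1 high ARA (2 of 6 called, with a median log2 fold change of -0.73), and their part in the members' values was not tested.

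Few genes of the mitochondrial class were called between these groups. Of its 40 members slc25a36a, a pyrimidine nucleotide carrier (log2 fold change 0.72 ± 0.22, edgeR adjusted p = 0.0356), and slc25a38b, a glycine carrier of heme synthesis (0.67 ± 0.20, 0.0358), were called, both higher, which is 5.00% of the class beside 17.3% of all tested genes. Neither was called with the enterocyte score in the fit (log2 fold changes of 0.67 and 0.68, edgeR adjusted p of 0.0919 and 0.0813), and slc25a38b was not called in the RefSeq counts. The summed level of the class was 6248 ± 775 CPM in F1 high ARA, 7242 ± 669 CPM in F1 control, 6729 ± 581 CPM in F0 high ARA livers, beside 6763 ± 763 CPM in F0 control (mean ± SD, n = 6 per group), with overlapping ranges.

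Other transport genes were counted for comparison. In the comparison of the high ARA generations, where 17.3% of all tested genes were called, 13 of 36 ABC transporter genes were called (4 higher, 9 lower), 2 of 4 SLCO organic anion carriers (slco2a1 and slco2b1, 1 in each direction), 1 of 9 aquaporins (aqp8a.2, lower) and 1 of 6 genes of the mitochondrial pyruvate carrier and porins (mpc2a, lower). Between F1 high ARA and F1 control 1 ABC gene was called (abcc6b.2, lower), beside 1.81% of all genes, and between F1 control and F0 control 2 (abca1a and abcb4, both lower), beside 2.42%. No SLCO, aquaporin or porin gene was called in these 2 comparisons.

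Some members share reads or sequence with other genes. The exons of 34 members overlapped those of another gene, slc12a7b, slc37a4a, slc43a2b, slc7a8a, slc27a2a, slc25a3b, slc22a7b.3, slc43a3a, slc35a4, slc44a5b and slc5a6b among the genes named, and since reads were counted without regard to strand their values are uncertain to that extent. In 31 of the 222 members with a RefSeq partner the RefSeq count was under 50% of the Ensembl count and in 7 over 200%. The 2 genes named slc44a2 (ENSDARG00000037059 and ENSDARG00000103399) and the 2 named slc16a7 each include a copy on an unplaced scaffold, and reads that fit both copies were not counted.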

How the data were processed

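Liver RNA of 24 pools was sequenced as single-end reads from a stranded mRNA kit. The authors mapped the reads to GRCz10 with HISAT2 and deposited raw counts per gene from featureCounts 1.5.0-p3, for Ensembl release 85 and for RefSeq, without normalization. The headers give no strand option, so strand was ignored, and with the default settings multi-mapped reads and reads on more than 1 gene do not count. Both files hold 12 further count columns, which belong to samples not used here.

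Ensembl and RefSeq genes were paired by reciprocal best exon overlap on the same strand. The RefSeq symbol named 217 members and an Ensembl name table the other 9. The members, classes and lists were chosen with earlier results of these data known. Named are all called members of a comparison (the 12 with the smallest p in each direction where over 25 were called), the 5 most abundant per class by RPKM, the 8 with the largest spread, and a list of liver and gut carriers, and any others were picked after their values were seen. Of that list slc10a1, slc10a2, slc25a13, slc16a1a, slc22a7b and slc30a10 were no members by name.

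The 11974 genes whose count averaged 10 or more in the 24 libraries were tested in edgeR 4.0.16 (R 4.3.3), using its quasi-likelihood F test (robust, TMM-normalized), each comparison on its own 12 libraries and the interaction on all 24. The Benjamini-Hochberg adjustment covered every tested gene, with a threshold of 0.05. The SE is the absolute log2 fold change divided by the square root of F. CPM use TMM factors over the 24 libraries, and scores are mean log2 CPM with a prior count of 2. The alternatives were DESeq2 1.42.0, RLE factors, library totals, other low-count filters, one fit of all libraries, RefSeq counts, marker scores as covariates, blocking on the replicate number, and leaving out single libraries. The fit without libraries of an enterocyte score over 5 was chosen after seeing the data. No 2 libraries were alike within sampling noise (276 pairs, smallest chi-square per degree of freedom 7.36). The code was tested on simulated counts. The precision of low genes is limited by totals of 5144880 to 15659321 counts.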

Additional observations from a re-analysis of the deposited data

Results flagged for a closer look

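Of 77 groups of 6 libraries tested for a single library far from the other 5, 7 held one, where chance gives about 1 in 20. For slc12a7b the library F1 high ARA 18 was low with 144 CPM (the others 198 to 229 CPM), and F1 control 10 was high with 177 CPM (the others 106 to 117 CPM), so that these libraries made the groups overlap. For slc27a6 the library F1 high ARA 15 had 44.1 CPM (the others 26.5 to 32.9 CPM) and F0 high ARA 18 had 23.8 CPM (the others 13.6 to 15.8 CPM). The library F0 high ARA 15 had 8.59 CPM of slc29a3 (the others 4.49 to 5.85 CPM). The library F0 high ARA 13 had 45.5 CPM of slc43a2b (the others 16.95 to 24.4 CPM). The library F1 high ARA 17 had 3.05 CPM of slc7a8a (the others 1.98 to 2.28 CPM).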

How the results depend on the processing

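The count of called members was 8 between F1 high ARA and F1 control, beside 1.81% of all tested genes, and became 20 with DESeq2 (5.15% of all genes), 5 with the pancreas score as a covariate (0.785%) and 1 without libraries of an enterocyte score over 5 (0.501%). With library totals in place of TMM the median of all genes rose to 0.12 on the log2 scale. Of 11 called members 10 were then higher, against 5 of 8, beside 1.75% of all genes called in either direction. Between F0 high ARA and F0 control it was 0, and 1 with DESeq2 (0.234%). Between F1 control and F0 control it was 8 (2.42%), but 22 with DESeq2 (5.12%), 15 with all 24 libraries in one fit (3.84%), 2 with the pancreas score (0.401%) and 0 without libraries over 5 (0.0334%). For the high ARA generations it was 51 (17.3%), but 30 with the enterocyte score (9.99%) and 6 without libraries over 5 (1.87%), where fewer libraries were tested. The interaction gave 0, but 3 with DESeq2 (0.985%).

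Leaving out each library in turn gave 2 to 16 calls between the F1 groups. These were 2 without F1 control 8 and 16 without F1 high ARA 18, beside 0.610% and 2.37% of all genes. Between the F0 groups there were 0 to 0, beside at most 0.0167% of all genes. Between the control groups there were 3 without F1 control 8 to 10 without F0 control 8 (1.04% and 2.39% of all genes). Between the high ARA groups there were 38 without F0 high ARA 13 to 50 without F0 high ARA 18 (11.7% and 14.9%). The interaction gave 0 to 1, with 1 without F0 control 8 or without F1 high ARA 16 (0.142% of all genes in each). Direction changed for slc38a3b with RefSeq counts (-0.30), for slc6a19a.1 with the enterocyte score (0.18) and without libraries over 5 (1.26), and for slc5a1 (0.285) and slc15a1a (0.293) without libraries over 5, all in F1 high ARA over F0 high ARA. No other called member changed direction without the libraries over 5 or with the enterocyte score. Same-numbered libraries of the 2 generations correlated from -0.36 to 0.27 and 3 of 24 libraries correlated best with their own number. These correlations show no pairing by number, but whether same-numbered tanks were related was not tested. With the replicate number as a block, 8 members were called between the control groups, 44 between the high ARA groups and 1, slc43a3b, in the interaction. In these fits 1.42%, 12.9% and 0.0752% of all tested genes were called, against 2.42%, 17.3% and 0.117% without the block. The F1 and F0 diet groups share no numbers. Genes under about 1 CPM had few counts per library, and smaller changes of these were not detectable at this depth.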
